A study of Homo sapiens with 4 samples.

Results

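LAPC4 cells, a long-established prostate cancer line of human origin that responds to androgen, were compared between androgen ablation combined with β-TrCP shRNA and the control condition, over the probe sets that were bright on either array. A probe set is a group of short probes on an Affymetrix array that measures a transcript. It was taken as bright where its deposited value reached a signal of 100 on the control array or on the array of the combined treatment. Of 22277 probe sets, 5565 met this rule, and 5543 of these remained once 22 Affymetrix control probe sets were left out. They comprised 4894 probe sets with a single gene name, which covered 3648 of 11963 genes, and 649 with several names or none. The weakest probe set inside the rule measured ZCCHC14 (change -0.50 on the log2 scale) and the strongest outside it measured ZFAND3 (change 1.13).

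All cells carried a lentiviral vector and were harvested after 72 hours. The control carried a GFP vector and grew in 10% FCS with 100 pM methyltrienolone, a synthetic androgen. The combined treatment carried shRNA against both β-TrCP isoforms and grew in 10% charcoal stripped serum (CSS), which is depleted of androgens and had no methyltrienolone. The other arrays held the GFP vector in CSS and the β-TrCP shRNA in FCS. The study's text also describes a doxycycline-inducible shRNA with untreated cells as control, so effects of the vector or of doxycycline cannot be told apart from those of the knockdown. Serum and added androgen differed together between FCS and CSS and cannot be told apart either. Each condition had 1 array. A difference between 2 arrays therefore has no replicate check, and changes are described with a 2-fold rule of size.

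β-TrCP1 and β-TrCP2, encoded by BTRC and FBXW11, are F-box proteins that bring phosphorylated substrates to an SCF ubiquitin ligase, which marks them for destruction by the proteasome. Known substrates include β-catenin, IκB and regulators of the cell cycle. The androgen receptor drives prostate luminal genes such as KLK3, which encodes prostate-specific antigen, and supports the growth of androgen-sensitive prostate cancer cells. Removal of androgen is the standard treatment of advanced disease, and the combination with loss of β-TrCP was the question of the study.

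FBXW11, a target of the shRNA, had a normalized log2 signal of 8.02 on the control array, 8.19 in CSS, 5.02 with shRNA alone and 4.68 after the combination. Both arrays with the shRNA were low, and the fall of 3.33 on the log2 scale, or 10.1-fold, was the largest decrease among bright genes with a single bright probe set. BTRC, the other target, was not bright: its 3 probe sets lay between 3.73 and 4.64 on all 4 arrays. The luminal identity of the cells was visible in the bright probe sets. KLK3, KLK2, TMPRSS2, HOXB13, KRT8, KRT18 and EPCAM, 7 of 8 luminal markers measured, were bright, and FOLH1 had a level of 3.85 to 4.06. No marker of basal epithelium (0 of 3), fibroblasts (0 of 9), leukocytes (0 of 8), endothelium (0 of 5), red blood cells (0 of 2) or neuroendocrine cells (0 of 4) was bright. Below that limit, the summed log2 signal of the leukocyte markers was 7.27 on the control array and 8.32 with the combined treatment, with LCP1 at 4.86 and 6.49, CORO1A at 4.51 and 6.18, and PTPRC, which defines leukocytes, at 3.79 and 3.91. The summed neuroendocrine markers were at 6.27 and 7.06, with NCAM1 at 4.22 and 5.86. The summed fibroblast markers were at 7.62 and 8.14, with COL1A2 higher by 1.12 and THY1 by 0.98. The part of these markers in any result was not tested.

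The combined array differed from the rest in spread. Its deposited values were compressed, with an interquartile range of 2.07 against 2.69 to 2.74, and it correlated with the others at r = 0.946 to 0.948 across probe sets, while those correlated with each other at 0.985 to 0.992. After quantile normalization of the 4 arrays, the robust SD of its differences from control was 0.46 among bright probe sets and 0.41 among all, so that bright probe sets as a whole were not the tighter group. Among probe sets bright on both arrays it was 0.35. For CSS alone and for the shRNA alone the values among bright probe sets were 0.28 and 0.29, against the same control array. The log2 difference between 3′ and 5′ probe sets, a sign of RNA integrity, was alike on the arrays compared (ACTB 0.45 and 0.44, GAPDH -0.01 and 0.03 for control and combined treatment). It was higher on the array in CSS alone (ACTB 1.03, GAPDH 0.18), which enters the fit over 4 arrays and the levels given for CSS. Its part in them was not tested.

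Of the 5543 bright probe sets, 161 (2.90%) were 2-fold higher or more and 326 (5.88%) 2-fold lower or more with the combined treatment. Among all 22215 probe sets these shares were 5.50% and 5.73%. Most of the bright differences came from probe sets that passed the rule on a single array. Of the 487 probe sets beyond 2-fold, 414 were bright on 1 array only, where the rule itself favours a difference. Among the 3882 probe sets bright on both arrays, 52 were higher and 21 lower (1.88%), with a median change of 0.04. Among the 1485 bright on the control only, 305 were lower and none was higher (20.5%, median -0.53), and of the 176 bright on the combined array only, 109 were higher and none lower (61.9%, median 1.12). These splits are descriptions of the rule. With the deposited values, where the compression of the combined array was kept, the split turned to 61 higher and 993 lower.

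**Figure D1:**
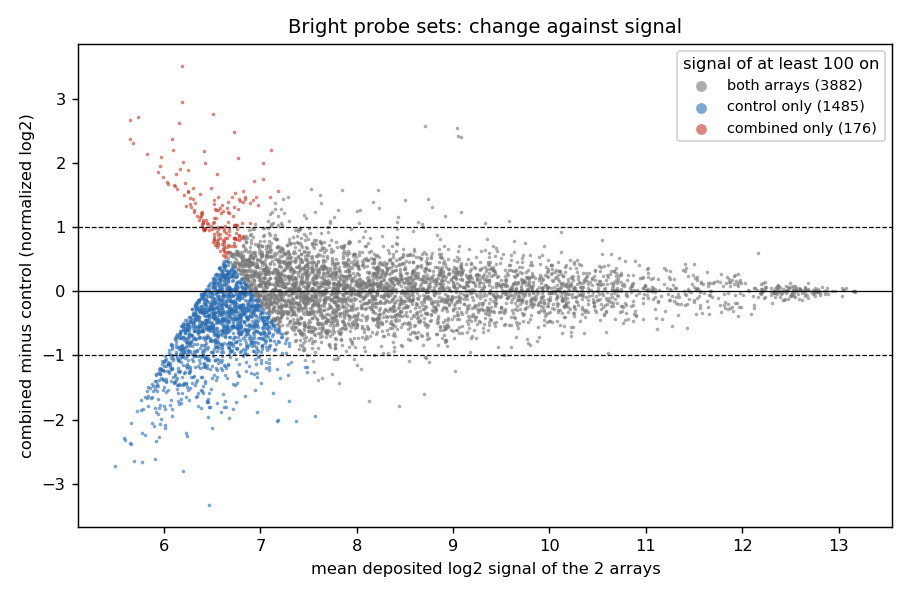
Change with the combined treatment (y axis, combined minus control, normalized log2) against the mean deposited log2 signal of the 2 arrays (x axis), 1 point per bright probe set, coloured by the array on which it reached a signal of 100. Dashed lines mark 2-fold, and the 161 higher and 326 lower probe sets lie mostly at the dim end, among those bright on 1 array only.

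The size of the differences fell with signal. For bright probe sets with a mean log2 signal under 7, the robust SD was 0.69 and 21.8% of 1779 lay beyond 2-fold. At a mean of 8 to 9 these values were 0.39 and 2.66% of 940. At 10 and above the robust SD was 0.17, and 0 of 651 probe sets lay beyond 2-fold. A probe set with a mean below the limit of brightness could enter only through 1 array, where the rule favours a difference. The spread in the lowest group is therefore partly set by the rule. From 7 upward the robust SD also fell, from 0.48 at a mean of 7 to 8. A difference of a given size thus stood further outside the spread at a higher signal among these bright probe sets.

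The combined array was also set against each of the other arrays. Of the 161 higher probe sets, 84 were at least 2-fold above all 3 other arrays (1.52% of the bright probe sets, and 4.28% of all probe sets). Of the 326 lower ones, 125 were at least 2-fold below all 3 (2.26% of the bright, and 3.15% of all). In the others, at least 1 single treatment came within 2-fold of the combination.

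Probe sets of the same gene gave a check of the measurement, though not of the condition, because they were read on the same RNA and arrays. At least 2 bright probe sets were available for 937 genes. Among these, all probe sets of a gene had the same sign in 672 genes (71.7%). At least 1 probe set was 2-fold higher in 38 genes and 2-fold lower in 94. In 12 genes all bright probe sets were higher by 2-fold or more, and in 12 all were lower by as much. Over all probe sets, without the rule on brightness, 0.789% and 1.28% of 4310 genes with 2 or more met the same conditions. Where the probe sets of a gene were bright on the same single array, the rule favoured the same direction in each. Their agreement is then partly set by the rule. With only probe sets bright on both arrays, 3 genes agreed higher and 2 lower. Between the 2 brightest probe sets of the 937 genes, Pearson's r of the changes was 0.66 across genes, and the median absolute difference was 0.22. The same pairs differed by a median of 0.16 for CSS alone (r = 0.64) and of 0.10 for the shRNA alone (r = 0.85).

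Agreement was closer for brighter pairs. Where the dimmer probe set had a mean log2 signal under 7, the pair differed by a median of 0.39 (362 genes, r = 0.62). At 8 to 9 the median difference was 0.15 (154 genes, r = 0.80), and at 9 to 10 it was 0.09 (77 genes, r = 0.93). At 10 and above it was 0.06 (82 genes, r = 0.87). These correlations are across genes, which are not independent replicates, and each pair shared its arrays.

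**Figure D2:**
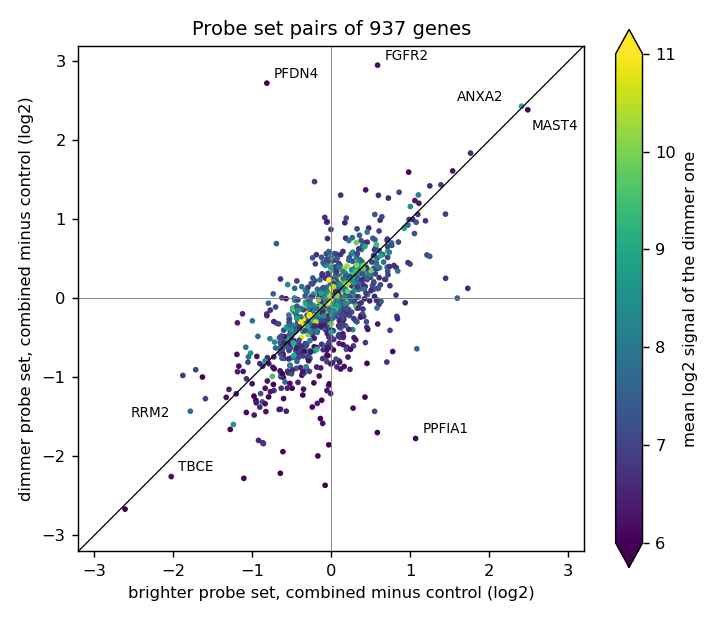
Change with the combined treatment in the brighter (x axis) and dimmer (y axis) of the 2 brightest probe sets of each of 937 genes, in normalized log2 units, coloured by the signal of the dimmer one, with the line of equality. ANXA2, MAST4, RRM2 and TBCE lie near the line, and PFDN4, FGFR2 and PPFIA1 far from it.

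ANXA2, which encodes the calcium-dependent membrane-binding protein annexin A2, had the largest agreeing increase. Its 3 bright probe sets read 7.76 to 7.87 on the control array, 8.49 to 8.54 in CSS, 9.63 to 9.68 with the shRNA and 10.26 to 10.31 with the combined treatment. The signal was thus higher in CSS than in control, higher again with the shRNA and highest with both, and the combined changes of 2.41, 2.43 and 2.55 were at most 0.14 apart. All are of the type that can bind related transcripts, and the probe set named for the pseudogene ANXA2P2 differed by 2.01. S100A10, which encodes the partner protein of annexin A2, had 1 bright probe set with levels of 7.44, 8.43, 9.11 and 10.02 on the same arrays, a 5.97-fold increase. The order of the 4 arrays was the same as for ANXA2. ANXA1 read 5.48 and 5.44 in control cells in FCS and CSS, 7.21 with the shRNA and 7.67 with the combined treatment. Its increase of 2.19 was seen on both arrays with the shRNA and not in CSS alone. ANXA1 was bright on the combined array only, where the rule favours an increase.

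TUBA1A, an α-tubulin gene, had the largest single-probe-set increase, with levels of 4.62 on the control array, 6.31 in CSS, 7.03 with the shRNA and 8.14 with the combined treatment. The difference of 3.52 was 11.5-fold, and each single treatment lay between. TUBA1A was bright on the combined array only, where the rule favours an increase. The transcription factor genes SOX4 and BCL6 also agreed across probe sets. SOX4 differed by 1.31, 1.10 and 1.28 in 3 probe sets, and its brightest read 9.05, 9.59, 10.12 and 10.16 in control, CSS, shRNA and combined treatment. BCL6 differed by 1.25 and 1.42, with levels of 8.47, 9.04, 9.56 and 9.72 in the brighter probe set. For both genes the array with the shRNA alone was at most 0.16 from the combined array in that probe set. VAV3, which encodes a guanine nucleotide exchange factor, had the same order, at 8.06, 8.55, 9.11 and 9.50 in its brighter probe set.

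Other agreeing genes were high on the combined array alone. MAST4, a kinase gene, read 5.63, 5.89 and 6.05 in control, CSS and shRNA and 8.12 after the combination in its brighter probe set, and 5.08, 5.32, 5.41 and 7.47 in the other. The brighter one has a rare name ending (_g_at). Of the 12 bright probe sets of named genes with rare endings, 7 (58.3%) were 2-fold higher and 0 lower. Of the 1992 with the plain ending (_at), 65 were higher and 151 lower. STK11, which encodes the tumour suppressor kinase LKB1, read 6.28, 6.15, 6.14 and 8.04, and its second probe set differed by 1.84. HGH1 differed by 1.54 and 1.61, and MZF1, a zinc finger gene, by 1.20 and 1.11, with the first 3 arrays of each probe set at most 0.44 log2 apart. The HGH1 probe sets, the second of STK11 and the first of MZF1 are of the type that can bind related transcripts. MVK, the mevalonate kinase gene, differed by 1.44 and 1.39, and its levels with the shRNA alone, 6.90 and 6.77, lay between. Each probe set of these 5 genes was under a signal of 100 on the control array. The single-probe-set genes PLCD1 (5.28, 5.28 and 5.27, against 8.05), GOLIM4 (4.53, 4.58 and 4.50, against 7.20) and PYY2 (5.03, 5.01 and 4.99, against 7.65) had the same shape, with no second bright probe set to set beside them.

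DBN1, MAPT and GRN lay close to the 2-fold line. DBN1 encodes an actin-binding protein and differed by 1.10 and 1.06. MAPT, which encodes the microtubule protein tau, differed by 1.06 and 1.24 and read 6.71 and 6.73 in CSS alone, against 6.02 and 5.86 on the control array. GRN encodes progranulin, a secreted protein, and its 3 probe sets differed by 1.00, 1.01 and 1.16. Some probe sets of MAPT and GRN are of the type that can bind related transcripts. Both MAPT probe sets were bright on the combined array only, where the rule favours an increase. With the deposited values only ANXA2, MAST4, STK11 and HGH1 of these 12 genes kept all probe sets beyond 2-fold. SOX4 then differed by 0.94, 0.87 and 0.85, BCL6 by 1.01 and 0.95, and at least 1 probe set of MVK, MZF1, VAV3, DBN1, MAPT and GRN also fell short.

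**Figure D3:**
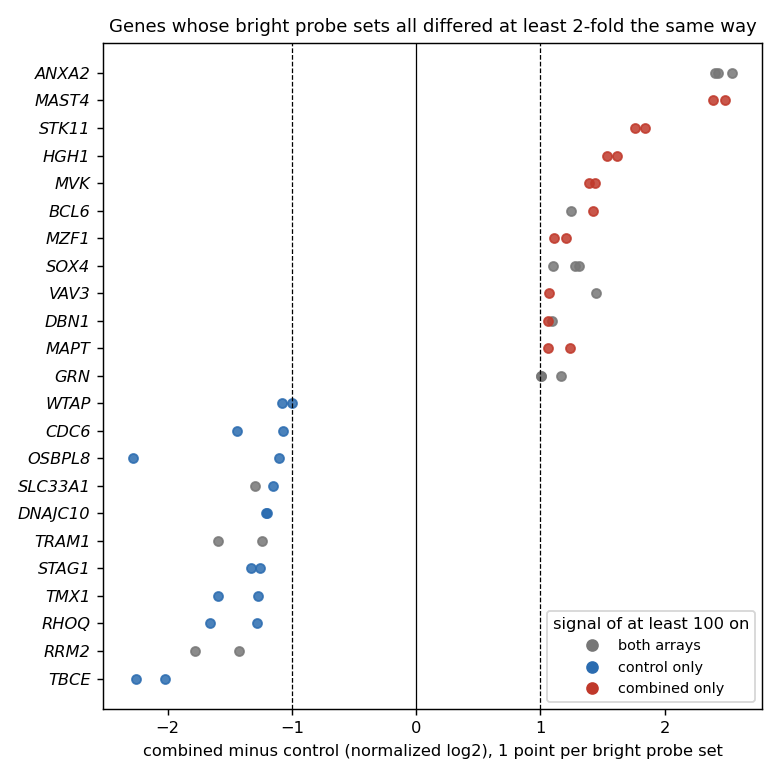
Change with the combined treatment (x axis, normalized log2) of each bright probe set of the 12 higher and 11 lower named genes whose bright probe sets all passed 2-fold, coloured by the array on which the probe set reached a signal of 100. ANXA2, SOX4, GRN, RRM2 and TRAM1 are the genes with every probe set bright on both arrays.

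TBCE, which encodes a chaperone that folds tubulin, had the largest agreeing decrease among genes above a normalized signal of 20 on both arrays. Its probe sets read 8.51, 7.88, 7.72 and 6.49, and 7.32, 6.40, 6.50 and 5.06, in control, CSS, shRNA and combined treatment. Each single treatment was lower than control and the combination lower still, with changes of -2.02 and -2.26. Both TBCE probe sets were bright on the control array only, where the rule favours a decrease. SERHL2 was lower by more in both its probe sets, which are of the type that can bind related transcripts. However, 1 of them was under a normalized signal of 20 on the combined array, which bounds its decrease at 6.20-fold or more. Both were bright on the control array only. RRM2, a subunit of ribonucleotide reductase, read 9.48 on the control array, 7.99 in CSS, 9.56 with shRNA alone and 7.70 after the combination, in the brighter of its probe sets. Both arrays in CSS were low and both in FCS high. CDC6, which loads replication origins, was lower by 1.44 and 1.07 in its 2 probe sets, with the shRNA alone at most 0.26 from control. Both CDC6 probe sets were also bright on the control array only.

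Some agreeing decreases followed the shRNA instead. TRAM1, which helps proteins enter the endoplasmic reticulum, read 9.65 and 9.44 in control cells in FCS and CSS, 7.87 with the shRNA and 8.06 with the combined treatment. Its second probe set read 9.78, 8.96, 8.56 and 8.54. SLC33A1, an acetyl-CoA transporter gene, read 8.54, 8.70, 6.94 and 7.24, and DNAJC10, which encodes an endoplasmic reticulum reductase, read 7.28, 7.06, 5.92 and 6.08. In all 3 genes the shRNA alone was at most 0.30 from the combination in every probe set. Both DNAJC10 probe sets and the dimmer one of SLC33A1 were bright on the control array only, where the rule favours a decrease. RHOQ, a small GTPase gene, differed by -1.66 and -1.28, TMX1 by -1.27 and -1.59, STAG1, a cohesin subunit gene, by -1.33 and -1.25, OSBPL8 by -1.11 and -2.28, and WTAP by -1.001 and -1.08. In these 5 genes the combined array was the lowest of the 4 in every probe set, and all probe sets were under a signal of 100 on it. The single-probe-set genes PPP2R3C (7.48, 7.02, 6.87 and 4.68), SLC25A46 (6.71, 6.65, 6.47 and 4.33), ANGEL2 (6.80, 7.03, 6.33 and 4.57) and DYNLT3 (7.29, 7.34, 6.50 and 5.08) were likewise lowest on the combined array.

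**Figure D4:**
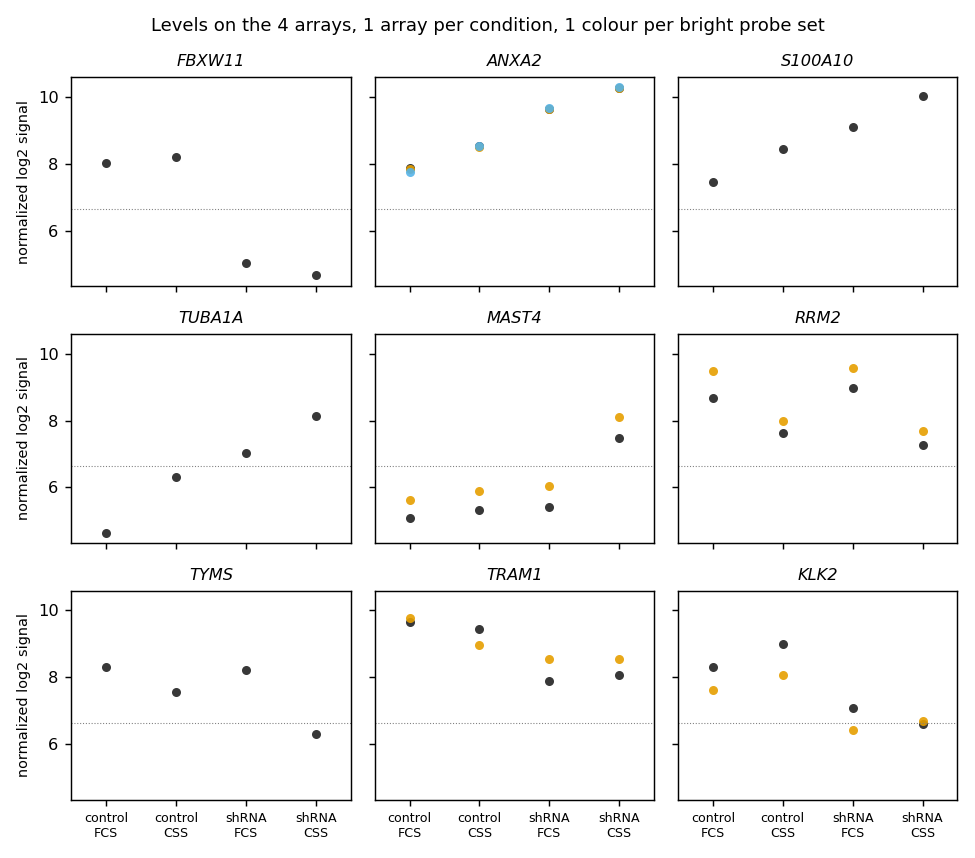
Normalized log2 signal (y axis) of 9 genes on the 4 arrays (x axis), 1 array per condition and 1 colour per bright probe set, with a dotted line at a signal of 100. ANXA2, S100A10 and TUBA1A step up over the arrays, MAST4 is high on the combined array alone, and RRM2 is low on both CSS arrays.

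Some genes had bright probe sets that disagreed. PPFIA1 was the only gene with probe sets beyond 2-fold in opposite directions (1.07 and -1.77). PFDN4 differed by 2.72 in a probe set with a level of 4.59 on the control array and by -0.81 in its brighter one. FGFR2, a growth factor receptor gene, differed by 0.59 and 2.95, LGALS8 by -0.03, -1.11 and -2.73, UBE2K by -0.08 and -2.37, and FBXO42 by 0.58 and -1.70. In LGALS8 the last probe set was under a signal of 20 on the combined array, which bounds its decrease at 5.31-fold or more. Altogether 14 genes had a probe set beyond 2-fold and another of opposite sign. For these genes the change depends on the probe set, and probe sets can measure different transcripts of a gene.

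A test over all 4 arrays was made with limma, with serum and shRNA as additive terms whose sum equals the combined minus the control array. It has 1 residual degree of freedom, the departure from additivity, and it assumes equal noise on all arrays. Each variance came from the trend of these departures on signal over the probe sets fitted. A gene's own departure from additivity therefore did not widen its standard error. At a Benjamini-Hochberg adjusted p of 0.05, limma called 140 bright probe sets higher (2.53%) and 223 lower (4.02%). Among all 15643 probe sets fitted, it called 1.44% higher and 1.57% lower. If all the noise lay in 1 of the arrays compared, the standard errors would be larger by the square root of 2, and limma then called 16 higher and 13 lower. Without the trend of the variance on signal it called 0 and 0. A rise or fall below is a call of this model, which does not measure the spread between cultures.

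The calls that remained at the larger standard errors were of large changes or of bright genes. The 3 probe sets of ANXA2 rose with limma adjusted p of 8.57e-30, 6.38e-30 and 5.17e-33 (SE 0.20 each), and S100A10 rose with limma adjusted p = 1.16e-27 (SE 0.22). TUBA1A (SE 0.49), FBXW11 (SE 0.50), both probe sets of TRAM1 (SE 0.22 and 0.21), and 1 probe set each of SOX4, BCL6, VAV3, TBCE and RRM2 were also called by limma with the larger errors. Other genes among these 29 probe sets, chosen for mention after their values were seen, were the thymosin gene TMSB10, which rose by 0.61 from 11.84, the gap junction gene GJA1, which rose by 1.42, and the guidance receptor gene ROBO1, which rose by 1.58. The nucleoside diphosphate kinase gene NME1 fell by 0.95 from 11.14, and the chromatin protein gene DEK fell by 1.72. MAST4 and STK11 were called by limma in both probe sets, with adjusted p of 0.0002777 and 0.0111 for MAST4 and of 0.0115 and 0.0408 for STK11, but not with the larger errors.

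Gene lists were described by the mean change over each gene's bright probe sets. Over all 3648 bright genes, 3.12% were higher by 2-fold or more and 6.22% lower by as much, and the median was -0.07. With the deposited values the median of all bright genes was -0.48, so that the sign of a list median near 0 depends on the scaling, and a list is read against that of all genes. The lists were chosen with earlier results of these data known, so their counts are descriptions.

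DNA replication genes were lower as a group. All 22 bright S-phase genes, of 40 measured, had negative values from -0.23 to -2.01, with a median of -0.84, and 7 of them (31.8%) were at least 2-fold lower. Of these 22 genes, 9 were bright on the control array only, where the rule favours a decrease. The 13 bright on both arrays were also all lower, with a median of -0.53, against 0.04 for all genes bright on both. In the limma model 8 genes fell (DUT, GINS1, MCM6, PCNA, RFC3, RRM1, RRM2 and TYMS) and 0 rose, and with the larger errors RRM2 and TYMS were still called. TYMS, the thymidylate synthase gene, read 8.31, 7.57, 8.22 and 6.29 in control, CSS, shRNA and combined treatment, a 4.04-fold decrease. PCNA, the sliding clamp of DNA polymerase, read 9.78, 8.98, 9.67 and 8.83, and MCM6, a subunit of the replicative helicase, read 7.41, 6.83, 7.49 and 6.07. In each of these 3 genes the shRNA alone was at most 0.11 from control and CSS alone was lower.

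Promoters of these genes are shown because the genes moved together. The RefSeq table of promoters (GRCh38.p14) held 19 of the 22 genes. The 250 bases before the annotated start were searched on both strands for TTTCCCGC, TTTGGCGC, TTTGCCGC and TTTCGCGC, words of the kind bound by E2F factors, some of which overlap when read on opposite strands. At least 1 word stood before 6 of the 19 genes (31.6%): MCM3, MCM6, MCM7, PCNA, RFC3 and TYMS. It stood before 5.19% of the 3120 bright genes with a promoter and before 2.79% of all 27305 promoters. RRM2, which was lower in both probe sets, had none of these words in this window. Neither had GINS1, CDC6 and POLE2, with values of -1.35, -1.26 and -1.22. MCM3 and MCM7, which had a word, were lower by less, with values of -0.655 and -0.46. A match of letters is a description and not a measured binding site. In the sequences below, 5′ to 3′ along the gene, capitals mark the words.
TYMS, chr18:657403-657652, plus strand: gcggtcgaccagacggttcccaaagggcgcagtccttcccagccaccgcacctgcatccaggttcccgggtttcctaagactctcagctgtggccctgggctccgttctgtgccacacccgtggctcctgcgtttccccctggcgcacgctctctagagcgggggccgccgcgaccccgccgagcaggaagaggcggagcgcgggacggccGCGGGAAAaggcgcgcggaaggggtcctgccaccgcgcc
MCM6, chr2:135876444-135876693, minus strand: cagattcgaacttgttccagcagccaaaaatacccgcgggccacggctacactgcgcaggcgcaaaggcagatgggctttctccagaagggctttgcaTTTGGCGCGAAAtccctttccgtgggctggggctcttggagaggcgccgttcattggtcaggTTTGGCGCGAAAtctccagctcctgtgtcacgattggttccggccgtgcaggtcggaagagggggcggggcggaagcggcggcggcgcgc
PCNA, chr20:5126623-5126872, minus strand: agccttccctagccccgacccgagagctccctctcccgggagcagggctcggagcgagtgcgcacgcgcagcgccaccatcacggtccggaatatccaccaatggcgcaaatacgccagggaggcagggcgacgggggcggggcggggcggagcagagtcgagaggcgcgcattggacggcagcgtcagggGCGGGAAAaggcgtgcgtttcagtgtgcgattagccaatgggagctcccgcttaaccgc
RRM2, chr2:10122489-10122738, plus strand: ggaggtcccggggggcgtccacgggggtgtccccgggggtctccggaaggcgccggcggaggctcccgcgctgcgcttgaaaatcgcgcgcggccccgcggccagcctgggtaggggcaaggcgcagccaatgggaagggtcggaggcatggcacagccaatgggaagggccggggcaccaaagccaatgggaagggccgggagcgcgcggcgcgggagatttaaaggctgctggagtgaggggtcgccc

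Mitosis genes lay on both sides of 0 in this comparison. Their median over 37 bright genes was 0.05 (-0.35 with the deposited values), with 21 higher and 16 lower. Among the 27 bright on both arrays the median was 0.30, with 21 higher and 6 lower, against a median of 0.04 for all genes bright on both. The other 10 were bright on the control array only, where the rule favours a decrease, and include MAD2L1, ECT2 and KIF4A. The balance over all 37 thus depended on these 10. MAD2L1, a spindle checkpoint gene, fell by 2.06 (6.92, 6.10, 7.32 and 4.85 in control, CSS, shRNA and combined treatment), and CCNB2, which encodes a mitotic cyclin, rose by 0.67 (8.87, 8.65, 9.53 and 9.54). These were the only limma calls of the list. ECT2 and KIF4A had values of -1.23 and -1.14, and ESPL1, the separase gene, of 1.03 and 0.64 in its 2 probe sets.

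Androgen-induced genes were mostly lower. The median of 17 bright genes was -0.41, with 13 lower and 4 higher, and 5 (29.4%) were at least 2-fold lower. All 5 (SGK1, HPGD, EAF2, AZGP1 and KLK2) were bright on the control array only, where the rule favours a decrease. The 11 genes bright on both arrays had a median of -0.13, with 7 lower and 4 higher. In the limma model HPGD, KLK2, KLK3, ODC1 and SGK1 fell and 0 genes rose, and with the larger errors limma called none of them (lowest adjusted p 0.0509, for KLK2). KLK2 and KLK3 were each called in 1 of their 2 probe sets. KLK3 read 9.003, 9.74, 8.02 and 8.37 in control, CSS, shRNA and combined treatment in the probe set that was not called, and 8.89, 9.92, 7.94 and 7.93 in the other. KLK2, a related kallikrein gene, read 8.30, 9.001, 7.07 and 6.59. Both genes were highest in CSS alone, the androgen-depleted medium, and low on both arrays with the shRNA. SGK1, a kinase gene, read 7.71, 7.41, 7.40 and 5.73, and was low on the combined array alone. EAF2 and AZGP1 had values of -1.41 and -1.31.

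The annexin and S100 list rested on few genes. Of 24 measured genes 9 were bright, 8 were higher and 3 (33.3%) at least 2-fold higher, with a median of 0.63. Of the 9 genes, 2 (ANXA1 and S100A13) were bright on the combined array only, where the rule favours an increase. ANXA1, ANXA2 and S100A10 rose in the limma model, and the 7 genes bright on both arrays had a median of 0.38. This list was written with the values of its leading genes known.

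AHR, the aryl hydrocarbon receptor gene, read 5.38, 5.82, 7.10 and 7.06 in control, CSS, shRNA and combined treatment. It was 3.21-fold higher with the combined treatment, high on both arrays with the shRNA, and was called by limma (SE 0.52, adjusted p = 0.0455) but not with the larger error (adjusted p = 0.8161). AHR was bright on the combined array only, just over the limit, and was beyond 2-fold, unlike the other bright genes of its pathway. NQO1, a classical target of the receptor, had values of -0.61, -0.67 and -0.32 in 3 probe sets. For another target, CYP1A1, the paper reports by quantitative PCR an increase that followed AhR across the treatments of LAPC4 cells. The receptor's chaperone HSP90AB1 rose by 0.32 in the probe set that limma called and had a value of 0.39 in the other.

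Sterol and fatty acid synthesis genes were higher in 15 of 20 (median 0.25, and -0.14 with the deposited values), and INSIG1, MVK and SCD rose in the limma model. INSIG1, a sterol sensor gene, had values of 0.60, 0.70 and 0.71 in 3 probe sets. Of 28 genes of tRNA charging and amino acid supply, 20 were higher (median 0.22, and -0.07 with the deposited values). Here DDIT4, GARS1, PHGDH, SLC3A2 and STC2 rose and TRIB3, a stress-induced pseudokinase gene, fell by 0.69. STC2 read 7.05 on the control array, 8.63 in CSS, 7.75 with the shRNA and 8.02 with the combined treatment, so that CSS alone was the highest. DDIT4 read 7.58, 8.72, 8.98 and 8.65, with all 3 treatments above control.

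Lists of constitutive machines had medians close to 0, with members on both sides. The 50 ribosomal protein genes ranged from -0.30 to 0.26 (median 0.04), and none was beyond 2-fold. RPS4X and RPS9 rose and RPS7 fell, each in 1 probe set. Among 62 respiratory chain genes the median was -0.09, and NDUFA5, NDUFA6, NDUFB8 and UQCRQ fell. NDUFA5 and NDUFB8 encode subunits of complex I. NDUFA5 fell by 1.29 and NDUFB8 had values of -0.75 and -0.99. The medians were -0.13 for 36 proteasome genes, -0.01 for 56 splicing genes and -0.13 for 35 genes of endoplasmic reticulum folding. Of the proteasome genes, PSMD4 rose and PSMD14 fell by 0.67, and PSMD12 had values of -0.49 and -1.14. SNRPA1, a spliceosome gene, had values of -0.89, -1.72 and -1.21 in 3 probe sets, and limma called the last 2. EIF2AK3, which encodes the stress sensor PERK, had a value of -1.41 with no call.

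Known β-TrCP substrates, which are regulated as proteins, had a median of -0.21 over 12 bright genes, with 8 lower and 4 higher. Of these 12 genes, 3 were bright on the control array only, where the rule favours a decrease. The 9 bright on both arrays had a median of -0.08, with 5 lower and 4 higher. PLK4, a kinase of centriole duplication, was bright on the control array only. Its normalized signal was under 20 on the combined array and at least 4.85-fold lower. CDC25B and CDC25A, cell cycle phosphatase genes, had values of 0.75 and -0.57. Of the 9 bright genes of the SCF ligase, FBXW11 was the only one beyond 2-fold. NF-κB genes (5 bright, median -0.12) and interferon-stimulated genes (4 bright, median -0.08) were mostly under the limit of brightness. In these 2 lists limma called 0 genes. IKBKB, which encodes a kinase of IκB, read 6.78, 6.39, 5.98 and 5.38 in control, CSS, shRNA and combined treatment and was bright on the control array only. Its value of -1.40 made it the only NF-κB gene of 5 beyond 2-fold.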

How the data were processed

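RNA of LAPC4 cells was hybridised to 4 Affymetrix arrays, 1 per condition, with groups taken from the sample labels. The authors deposited log2 values of 22277 probe sets. Their methods name MAS5 signals, a filter on intensity and present calls, and quantile normalization, and the labels name MAS5 without a version. The deposited columns hold all probe sets and do not share a distribution, so the scale of the deposited log2 values as MAS5 signals was taken from these sources and not tested. The amount of RNA is given as 6 µg in the labels, and the control is described in more than 1 way.

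The 4 columns were quantile normalized here, with no floor. Brightness was read from the deposited values. In the platform annotation 19064 probe sets have 1 gene name, 1043 have several, 2108 have none, and 62 are Affymetrix controls. Symbols were updated through RefSeq gene identifiers, and probe sets with several names or none entered no gene count. A gene's value is the mean over its bright probe sets. Robust SD is the scaled median absolute deviation. Fold changes against a normalized signal under 20 are given as bounds at 20. The limit of 20 for named genes was also read from the normalized values. Precision is limited by the number of arrays, 1 per condition, and 2-fold was a rule of size. The additive model was fitted with limma 3.58.1 (R 4.3.3) to 15678 probe sets that reached a deposited signal of 20 on any array, with a variance trend and Benjamini-Hochberg adjustment over all probe sets fitted. The prior degrees of freedom were infinite, so each variance came from the trend. The 21 gene lists and 7 marker lists were written by hand. The counting and limma steps were tested on simulated data. Recovery of planted changes was required only with equal noise on all arrays. These checks therefore do not cover a combined array that is noisier than the others. Counts and figures were made in Python 3.11.15 with pandas 2.3.3, numpy 2.4.6 and matplotlib 3.10.9.

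Named genes were the 12 largest agreeing increases and up to 12 decreases at a signal of at least 20 on both arrays (11 met this), 5 single-probe-set genes each way, up to 4 genes per list, the 6 widest disagreements, and FBXW11, BTRC, AHR, KLK2, KLK3, ANXA1, ANXA2, S100A10 and TYMS. Other genes are named for a limma call. The probe sets, lists and rules were chosen with earlier results of these data known. Alternatives were other normalizations, brightness limits, fold limits, probe set choices and limma settings.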

Additional observations from a re-analysis of the deposited data

Results flagged for a closer look

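A control probe set for the 3′ end of 28S ribosomal RNA, outside the bright probe sets with gene names, was 2.32 log2 above the highest of the other 3 arrays on the array of the combined treatment. Its deposited log2 signal was 4.36 on the control array, 4.30 in CSS, 4.35 with shRNA alone and 6.69 after the combination. It was noted because no comparison uses it and it stood above the control. Other control probe sets of the same RNA were brighter and went both ways between the control and combined arrays. The 5′ one differed by -0.32 (7.65 and 7.33) and the middle one by 0.76 (8.55 and 9.31). With 1 array per condition these differences were not tested.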

How the results depend on the processing

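Counts beyond 2-fold depended on normalization and on the limit of brightness, each written here as higher and lower, first for bright probe sets and then for genes whose bright probe sets all agreed. They were 61 and 993 (4 and 82) with values as deposited, and 47 and 1235 (3 and 104) at a common median, where the combined array kept its narrower spread. They were 52 and 21 (3 and 2) for probe sets bright on both arrays, 73 and 144 (6 and 3) for a mean of 4 arrays of at least 100, 43 and 70 (3 and 3) at a signal of at least 200, and 1221 and 1270 (43 and 68) at 20. At 3-fold they were 41 and 86 (3 and 2). At 1.5-fold 35 genes agreed higher and 70 lower, and without probe sets ending in _x_at 6 genes agreed higher. Quantile normalization of the 2 arrays, or of probe sets of at least 20, left every 2-fold count within 1.5 times. Calls by limma were 16 higher and 13 lower with standard errors times the square root of 2, 21 and 78 with values as deposited, 5 and 6 at a common median, 41 and 50 when fitted on all probe sets, and 0 and 0 without the trend. Which genes were shared between settings was not counted.

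Relative to the median of all genes, the S-phase median was -0.77, and -0.57 for genes bright on both arrays, -0.63 for a mean of 4 arrays of at least 100 and -0.62 at 200. The annexin and S100 median was 0.69, and 0.33, 0.40 and 0.41 in the same settings and 0.38 at 20. The androgen-induced median was -0.34, and -0.54 at 200 and -0.55 at 20. These 3 kept their sign in all 11 alternatives. Medians that turned sign were those of tubulins and chaperones (0.13 with values as deposited and at a common median), ribosomal proteins (-0.0078 at 20) and β-TrCP substrates (0.16 at 200 and 0.0071 at 20). The cause of these shifts was not tested. Over 21 lists, 163 of 230 alternative medians moved by no more than the robust SD over the list's genes divided by the square root of their number, and of 708 alternative values of 118 named genes 225 moved by more than probe sets of a gene typically differ, though 0 beyond 2-fold turned sign. No paired analysis was possible because each condition has 1 array and no shared replicate numbers.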

Other observations

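Other bright gene groups were mixed. The median of 25 lysosomal genes was 0.16 (-0.30 with the deposited values), with 16 higher and 9 lower. CD63 rose by 0.42 in the limma model, and LAMP2, a lysosomal membrane protein gene, fell by 1.68 (7.34, 7.30, 6.54 and 5.66 in control, CSS, shRNA and combined treatment). The median of 25 actin and focal adhesion genes was 0.03 (-0.08 with the deposited values), with 14 higher and 11 lower. LASP1 rose by 1.17 and CAPN2, a calpain gene, fell by 0.58. The focal adhesion gene ZYX had a value of 1.37 and LIMA1 of -1.13. The integrin gene ITGA6 had values of -1.32 and -0.95 in 2 probe sets. ZYX was bright on the combined array only, and ITGA6, LIMA1 and LAMP2 on the control array only. For each of these genes the rule favours the direction seen.

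Among 14 tubulin and chaperone genes the limma calls ran both ways. TUBA1A rose by 3.52 and TBCB, a tubulin-folding cofactor gene, had values of 0.54, 0.61 and 0.63 in 3 probe sets. TBCE fell, as did TUBA1B (values of -0.39, -0.32 and -0.30, from levels of 11.94 to 12.17 on the control array) and TUBB (-0.36 in the probe set called). SFN, a p53 target that encodes 14-3-3 sigma, read 5.51 in control, 5.59 in CSS, 7.54 with the shRNA and 7.11 with the combined treatment in the probe set that limma called, and was the only call among 8 bright p53 targets. The called probe set also has a rare name ending (_r_at). It was bright on the combined array only, where the rule favours an increase. Of 18 glycolysis and hypoxia genes 11 were higher and 7 lower (median 0.07, and -0.13 with the deposited values), with 0 limma calls.

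The 18 spike-in control probe sets, whose RNA was added in the laboratory, differed between the combined and control arrays by -0.30 to 0.36 in the deposited values (median 0.11) and by -0.17 to 0.84 after quantile normalization (median 0.23).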
